A study of Mus musculus with 3 samples.

Results

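The miR-506 family of the mouse is taken here as the miRNAs numbered miR-201, miR-463, miR-465, miR-470, miR-471, miR-509, miR-547, miR-741, miR-742, miR-743, miR-871, miR-878, miR-880, miR-881, miR-883 and miR-890. The rule takes every mouse miRNA entry that carries one of these numbers, with its letter and arm, and reads only the name. By this rule 31 of the 805 miRNA names counted in extracellular vesicles (EVs) of postnatal day 7 (PND7) mouse testis belonged to the family. They made up 25 of 604 mature entries and 31 of 743 hairpin entries, since the deposited catalogues can list a name both as mature and as hairpin. RefSeq gives 40 mature names from 22 hairpins under the same rule, so that 9 of its names had no count in any library. No miR-890 is among the 40 names or among the counted ones.

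miRNAs of this family come from the X chromosome, where their genes lie side by side in clusters, and they are known as miRNAs of the testis, made in germ cells and in some somatic cells of the seminiferous tubule. Each hairpin precursor is cut into a 5p and a 3p arm, and usually one arm is kept and loaded into an Argonaute protein. Bases 2 to 8 of the loaded arm, its seed, pair with target mRNAs, so members with the same seed can bind the same sites.

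Small RNA was sequenced from EVs of C57/BL6 male mice at PND7, an age at which spermatogonia are the main germ cells. There were 3 libraries, each from EVs of 10 mice, released by digestion of the decapsulated testis and treated with proteinase K, PMSF and RNase A before RNA extraction. The titles of all 3 samples carry the word treated, and every library belongs to the same condition, so no control group exists. The comparisons below are therefore made between members, arms and miRNA groups within each library, and over the spread of the 3 libraries.

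No other tissue was sequenced, and enrichment of the family in testis was not tested. The libraries held 25716952, 26002463 and 27939308 clean reads, with 870967 to 1005836 counts on mature and 493345 to 612122 counts on hairpin entries. The libraries differed from each other by far more than counting noise, with a chi-square of 96.6 to 187 per degree of freedom over 272 miRNAs. The gonadal somatic marker miR-202 stood at 21203 to 29797 CPM, which is the count of an entry scaled to the total of mature miRNA counts in its library. The listed germ cell markers miR-34b, miR-34c and miR-449a, known from meiotic germ cells, stood together at 599 to 1264 CPM. Most of this was miR-449a-5p, at 442, 1060 and 652 CPM in replicates 1, 2 and 3. miR-34b and miR-34c had mature counts on the 3p arm only, at 23.8 to 132 and 0 to 139 CPM. As spermatogonia are the main germ cells at PND7, these values do not measure the share of germ cells. Markers of other cells were counted as well, with the endothelial miR-126a at 8790 to 17143, muscle miRNAs at 587 to 1073, erythroid miRNAs at 390 to 607, leukocyte miRNAs at 336 to 628 and the liver miRNA miR-122-5p at 0 to 0.994 CPM.

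The mature sequences of the most abundant members by mean level, down to miR-880-3p, and of the members that share a seed with them, are shown from RefSeq (GRCm38.p6), because reads are given to a name by sequence and several names differ by a single base or by none. All 31 counted names had a RefSeq entry. They are written 5′ to 3′ in lower case, and capitals mark the seed.
miR-470-5p: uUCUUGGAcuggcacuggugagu
miR-871-5p: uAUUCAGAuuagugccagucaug
miR-743a-5p: uAUUCAGAuuggugccugucau
miR-871-3p: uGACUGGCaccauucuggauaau
miR-463-5p: uACCUAAUuuguuguccaucau
miR-741-3p: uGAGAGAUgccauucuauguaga
miR-201-5p: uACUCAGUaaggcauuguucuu
miR-471-3p: uGAAAGGUgccauacuauguau
miR-881-3p: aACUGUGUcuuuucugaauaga
miR-547-3p: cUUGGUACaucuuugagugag
miR-880-3p: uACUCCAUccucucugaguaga
miR-465a-3p, miR-465b-3p and miR-465c-3p: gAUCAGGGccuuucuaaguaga
miR-465b-5p: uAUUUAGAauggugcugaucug
miR-465c-5p: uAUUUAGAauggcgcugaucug
miR-465a-5p: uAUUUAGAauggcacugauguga
miR-465d-5p: uAUUUAGAaugguacugauguga

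The hairpin of miR-470, the most abundant member, is shown as an example of the precursors, with capitals for both mature arms. Its gene, Mir470, lies on the minus strand at chrX:66813951-66814025 (GRCm38.p6), outside any other annotated gene.
Mir470: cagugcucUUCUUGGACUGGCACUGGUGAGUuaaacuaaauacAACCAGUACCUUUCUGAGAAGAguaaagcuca

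The 40 RefSeq names held 38 distinct sequences and 32 distinct seeds. Only 5 seeds were held by more than 1 name, and only 1, that of miR-743b-5p, was found in a RefSeq miRNA outside the family, miR-6948-5p. miR-871-5p and miR-743a-5p have the same seed and differ over their shared length by A11G and A17U, counted from 1 at the 5′ end with the base of miR-871-5p first. miR-465b-5p and miR-465c-5p differ by U13C, while the 3p arms of miR-465a, miR-465b and miR-465c are identical. Of 20 family 5p arms, 18 (90%) began with U, against 42.2% of 697 mouse 5p arms in RefSeq, and 15 began with UA, against 10.5%. Among the 20 family 3p arms, 10 (50%) began with U, against 42.0% of 709. The family 5p arms also had a lower GC content, with a median of 39.1% against 52.2% for all 5p arms.

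The family held 11678, 15581 and 16794 mature counts in replicates 1, 2 and 3, which is 1.34%, 1.55% and 1.74% of all mature miRNA counts (1.54% ± 0.199, SD, n = 3). Replicate 1 was lowest and replicate 3 highest, and the exact (Clopper-Pearson) 95% intervals of 1.32 to 1.37%, 1.53 to 1.57% and 1.71 to 1.76% did not overlap. These intervals cover counting error only. Between libraries, 13 family entries differed by more than that, with a chi-square of 15.3 to 20.3 per degree of freedom. The highest library stood 1.30 times above the lowest. The endothelial miR-126a was also lowest in replicate 1 and highest in replicate 3, at 8790, 11601 and 17143 CPM. The other markers had other orders. The gonadal somatic miR-202, at 21203, 29797 and 26350 CPM, and the germ cell markers were highest in replicate 2, and the erythroid miRNAs in replicate 1. Leukocyte and muscle miRNAs were lowest in replicate 2 and highest in replicate 3. The part of these cells in the family's level was not tested. In EVs pooled from the whole testis, fewer cells of a type, less RNA per cell and less release into EVs cannot be told apart.

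Of the 31 names, 27, 26 and 26 had counts in replicates 1, 2 and 3, and 23 had counts in every library. Among mature entries alone, 16 of the 25 (64%) were counted in every library, against 54.1% of all 604 mature entries. At least 10 mature counts in every library were reached by 13 members, and another 8 reached this with their hairpin entry.

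miR-470-5p was the leading member. It had 7989, 10786 and 11530 mature counts, or 9173, 10723 and 11930 CPM (10609 ± 1382, SD, n = 3), and ranked 18th, 19th and 16th among all mature entries. Its share of the family was nearly the same in the 3 libraries, at 68.4%, 69.2% and 68.7% (68.8% ± 0.418). Without it, the rest of the family came to 4236, 4767 and 5447 CPM.

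miR-871, from the neighboring hairpin, followed with both arms. miR-871-5p stood at 1439, 1485 and 1438 CPM (1454 ± 27.1) and varied least between libraries of the 13, the highest being 1.03 times the lowest. miR-871-3p was counted at 325, 614 and 548 CPM (496 ± 152), and its lowest library was replicate 1. miR-743a-5p, which shares the seed of miR-871-5p, was far lower at 68.9, 18.9 and 0 CPM, so that the seed AUUCAGA as a whole reached 1508, 1504 and 1438 CPM.

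miR-463-5p was measured at 274, 418 and 685 CPM (459 ± 208) and was lowest in replicate 1 and highest in replicate 3. miR-741-3p stood at 185, 286 and 273 CPM (248 ± 55.2) and miR-201-5p at 183, 294.3 and 261 CPM (246 ± 57.3). miR-463-5p lay above both in every library, whereas miR-741-3p and miR-201-5p could not be ordered, as each was higher in at least 1 library. miR-463-5p and miR-871-3p likewise changed places between libraries. miR-201 and miR-547 are the members of the smaller cluster that had mature counts.

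Of the other members with at least 10 mature counts in every library, miR-465b-5p and miR-465c-5p are described with their group below, and the rest had lower means. miR-471-3p stood at 107, 108 and 311 CPM (176 ± 118), highest in replicate 3. miR-881-3p was counted at 142, 52.7 and 138 CPM (111 ± 50.5), lowest in replicate 2. miR-880-3p, from a hairpin in the same stretch of the cluster, differed little between libraries at 81.5, 76.6 and 75.5 CPM (77.9 ± 3.20). miR-743a-3p was counted at 28.7, 18.9 and 63.1 CPM and miR-878-3p at 56.3, 11.9 and 38.3 CPM, and their ranges overlap.

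**Figure D1:**
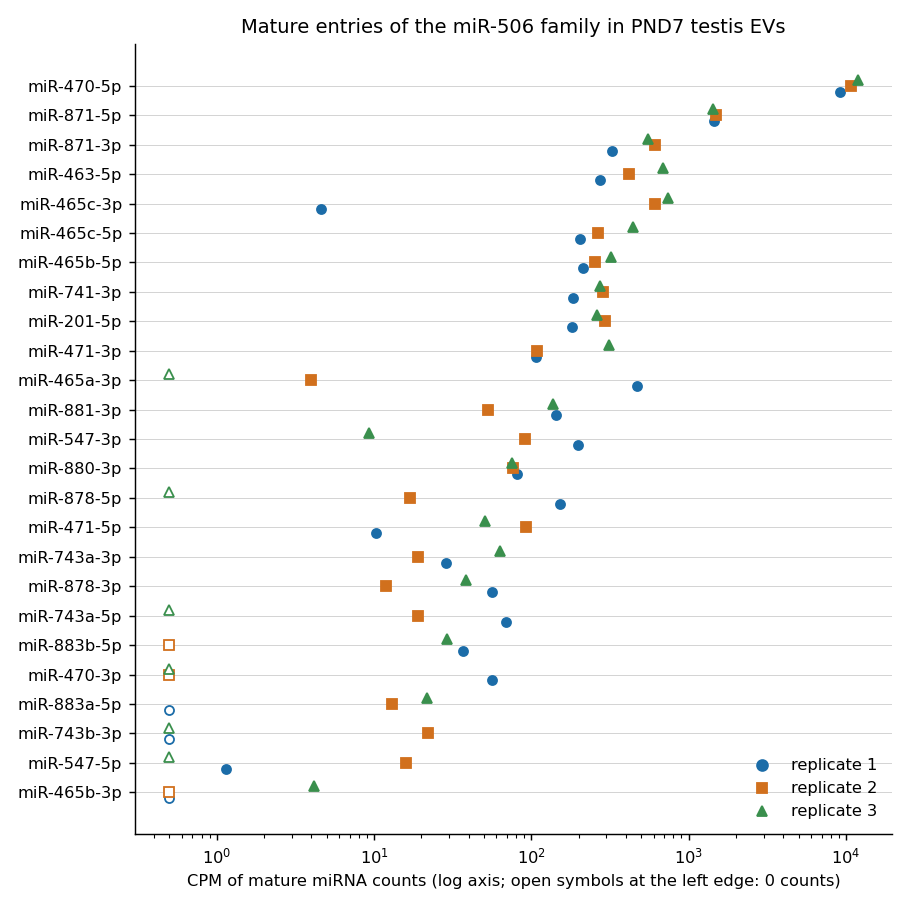
Each row is a mature entry of the family, with 1 symbol per library, on a log axis of CPM of mature miRNA counts. miR-470-5p sits between 9173 and 11930 CPM, the tight row of miR-871-5p lies between 1438 and 1485, and miR-465a-3p and miR-465c-3p are scattered, from 0 to 468 and from 4.59 to 741.

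Several members varied widely between libraries. Of the 13 entries with at least 10 counts in every library, 6 had a highest library over 2 times the lowest, against 40.4% of the 272 such entries of all miRNAs. The median of this ratio was 1.89 in the family and 1.73 over all entries. The widest among the 13 were miR-878-3p, at 4.72 times, and miR-743a-3p, at 3.34 times. Below this limit, miR-547-3p fell from 172 counts in replicate 1 to 91 and 9 in replicates 2 and 3, and miR-878-5p had 133, 17 and 0 counts. The counts of miR-471-5p were 9, 93 and 49, with replicate 1 lowest. The remaining members with mature counts, miR-470-3p, miR-547-5p, miR-743a-5p, miR-743b-3p, miR-883a-5p, miR-883b-5p and miR-465b-3p, each had 0 counts in at least 1 library and no more than 60 in any. A count of 0 allows a level of up to 3.44, 2.98 and 3.10 CPM in replicates 1, 2 and 3, for counting error only.

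The miR-465 group shows how the name given to a sequence moved between libraries. RefSeq places 6 Mir465 hairpins next to each other over 16.5 kb (chrX:66822656-66839125, GRCm38.p6), with gaps of 3.17 to 3.24 kb, and the identical 3p sequence printed above lies in 5 of them. Under the name miR-465a-3p it had 408, 4 and 0 mature counts, while under miR-465c-3p it had 4, 613 and 716. Replicate 1 thus gave 99.0% of this sequence to miR-465a-3p, and replicates 2 and 3 gave 99.4% to miR-465c-3p. The third name, miR-465b-3p, had 0, 0 and 4 counts.

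Summed over the 3 names, the sequence stood at 473, 613 and 745 CPM (610 ± 136), and its highest library was 1.57 times the lowest, below the family median of 1.89. The levels of miR-465a-3p and miR-465c-3p as separate members are therefore uncertain. In hairpin entries the leading name changed as well. miR-465a-3p had 820, 11 and 186 hairpin counts, miR-465b-3p had 86, 590 and 36, and miR-465c-3p had 13, 140 and 1218. The leading name held 89.2%, 79.6% and 84.6% of the 3 names in replicates 1, 2 and 3, and it was miR-465a-3p, miR-465b-3p and miR-465c-3p in turn. Among counted names with a RefSeq entry, 3 mature sequences stood under more than 1 name. The leading name changed between libraries in all 3, the others being those of miR-199a/b-3p and of let-7a-1-3p with let-7c-2-3p. Of the 604 mature entries, 442 had a RefSeq entry, and the rest were not checked for this.

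The 5p arms, which differ by U13C, were both counted in every library. miR-465b-5p stood at 214, 253 and 319 CPM (262 ± 53.1) and miR-465c-5p at 204, 265 and 441 CPM (304 ± 123). The ratio of miR-465c-5p to miR-465b-5p was 0.957, 1.05 and 1.38 (1.13 ± 0.224), so neither was higher in every library. Each of these sequences lies in 2 identical hairpin copies, which counts cannot divide. miR-465a-5p had no mature count and miR-465d had no count of either type.

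**Figure D2:**
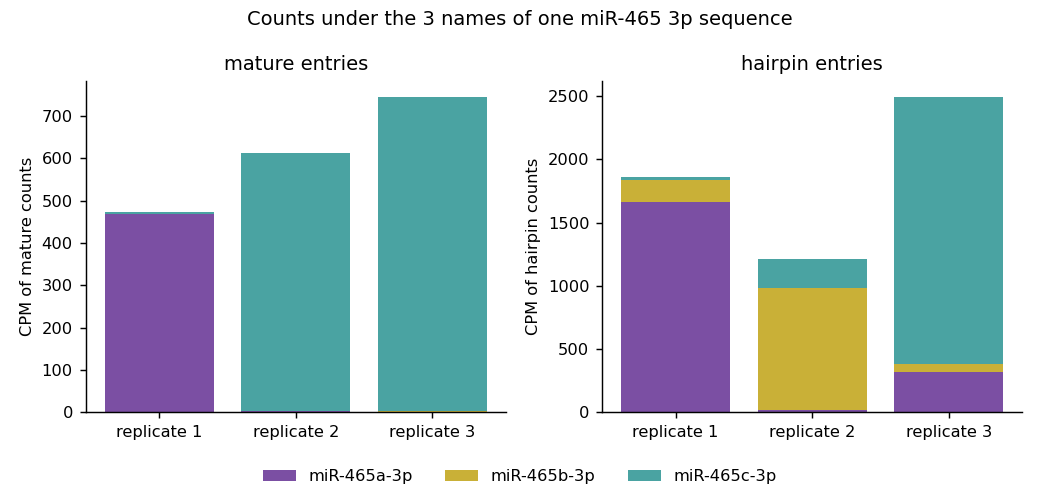
Stacked bars give CPM of the 3 names that hold the identical miR-465 3p sequence in each library, from mature entries on the left and hairpin entries on the right. The summed mature level lies between 473 and 745 CPM, whereas the name that fills the bar is miR-465a-3p in replicate 1 and miR-465c-3p in replicates 2 and 3.

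The arms of each hairpin were compared within libraries, which asks from which arm the mature miRNA in the EVs came. Among 13 pairs with counts on either arm in every library, the 5p arm was higher in every library for 5 (miR-470, miR-463, miR-201, miR-465b and miR-871), the 3p arm for 5 (miR-471, miR-547, miR-880, miR-881 and miR-741), and 3 were mixed (miR-465c, miR-878 and miR-743a). Over all 244 such miRNA pairs, the 5p arm was higher in every library in 50.4% and the 3p arm in 36.9%. With 3 libraries a two-sided exact permutation test that flips the sign of each library's log2 ratio cannot give a p under 0.25, and each of the 10 pairs with the same direction in every library had p = 0.25 (0.325 after Benjamini-Hochberg adjustment over the 13 pairs), so none could pass 0.05.

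For miR-470, the 5p arm had 163 times the counts of the 3p arm in replicate 1, where miR-470-3p had 49 counts. In replicates 2 and 3 miR-470-3p had 0 counts, and the 5p arm was at least 3595-fold and at least 3843-fold higher, with 3 counts per library as the floor. miR-463 and miR-201 had counts on the 5p arm only, which was at least 79.7-fold and at least 53-fold higher in each library. For miR-871 both arms were well counted, and the 5p arm led by 2.14, 1.27 and 1.39 on the log2 scale (1.60 ± 0.47).

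The opposite arm led in other members. miR-741, miR-881 and miR-880 had mature counts only on the 3p arm, which was at least 53.7-fold, at least 17.7-fold and at least 23.7-fold higher in each library. For miR-471 the log2 5p to 3p ratio was -3.30, -0.23 and -2.61, and in replicate 2 the 3p arm had only 1.17 times the counts of the 5p arm. With mature and hairpin entries summed it was -0.46, 0.51 and -0.96 (mean -0.30, exact permutation p = 0.75), so that the lead of the 3p arm in every library held for mature entries only. miR-741-5p, without mature counts, had 17, 0 and 42 hairpin counts, and with both types summed the mean log2 ratio of miR-741 was -5.49 in place of -8.85. The pair of miR-547 held no more than 9 counts in replicate 3.

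The mixed pairs rested on single libraries. miR-878 and miR-743a had log2 5p to 3p ratios of 1.43, 0.49 and -6.23 and of 1.25, 0 and -6.94, and in replicate 3 their 5p arms had 0 counts. Without replicate 3 the mean ratio turned from -1.44 to 0.96 for miR-878 and from -1.90 to 0.62 for miR-743a. The ratio of miR-465c was 5.31, -1.20 and -0.75, and its mean turned from 1.12 to -0.97 without replicate 1, the library in which the shared 3p sequence was listed as miR-465a-3p. The 5p lead of miR-465b rests on the same naming: with both arms of miR-465a, miR-465b and miR-465c summed, the log2 ratio was -0.18, -0.24 and 0.03 (-0.13 ± 0.14, exact permutation p = 0.5), and 4 pairs then had the 5p arm higher in every library.

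By counts, 5p arms made up 87.7%, 87.8% and 87.3% of the family (87.6% ± 0.232). Without the pair of miR-470 they made up 61.8%, 60.3% and 59.6% (60.5% ± 1.15).

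**Figure D3:**
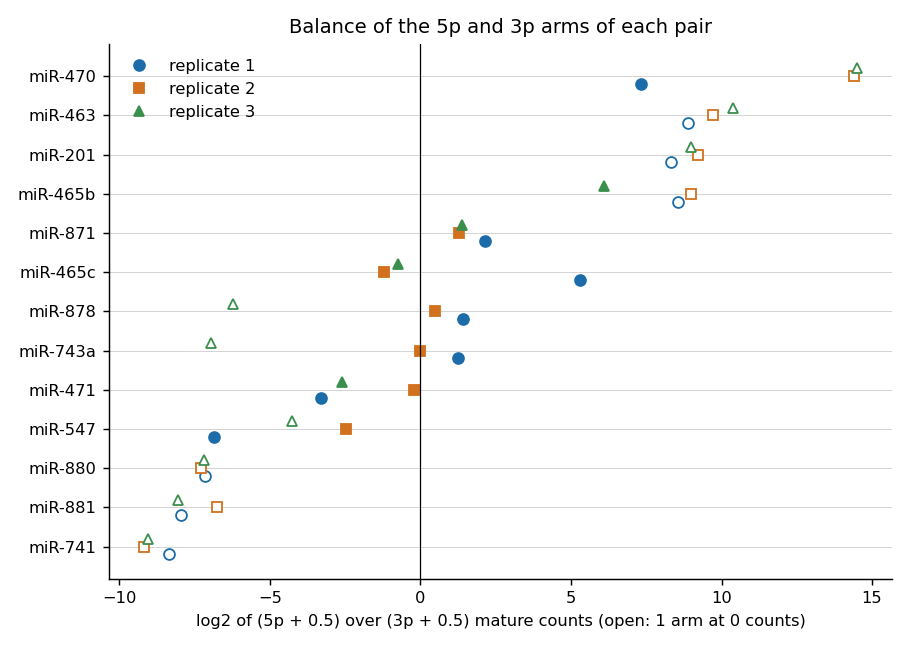
Each row is a miR-506 family pair, and each symbol is the log2 ratio of 5p to 3p mature counts, each plus 0.5, in 1 library, with open symbols where 1 arm had 0 counts. Pairs on the right, such as miR-470, lie above 0 in all 3 libraries, pairs at the bottom, such as miR-741, lie below 0, and miR-878, miR-743a and miR-465c fall on both sides or at 0.

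The levels were then placed along the X chromosome (GRCm38.p6), where all 22 hairpins lie on the minus strand and none overlaps another annotated gene. A larger cluster of 19 hairpins covers 62.4 kb (chrX:66776757-66839125), 115 kb from the protein-coding gene Slitrk2. The smaller cluster, Mir201, Mir547 and Mir509, covers 22.1 kb (chrX:67988096-68010179), 1149 kb away. Its nearest protein-coding genes are 4933436I01Rik at 66.6 kb and, on the other side, Fmr1, the gene of the fragile X protein, at 668 kb. The larger cluster held 97.2%, 97.4% and 98.4% of the mature counts of the family (97.7% ± 0.682). The smaller cluster stood at 381, 401 and 270 CPM.

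Neighbors in the larger cluster differed widely in level. Mir470 and Mir871 lie 3.45 kb apart, and Mir741, Mir463, Mir880, Mir878 and Mir881 follow each other within 5.22 kb. The hairpins at the far end of the cluster, Mir743, Mir743b, Mir742 and Mir883a, gave mature miRNAs at a mean of no more than 66.2 CPM each, and Mir742 had no mature count. Taken with the other X-linked miRNAs, the family was a large part: 64 mature names with RefSeq hairpins only on X held 2.89%, 3.31% and 3.27% of the mature counts, and the 25 family names among them held 46.4%, 46.8% and 53.2% of these.

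**Figure D4:**
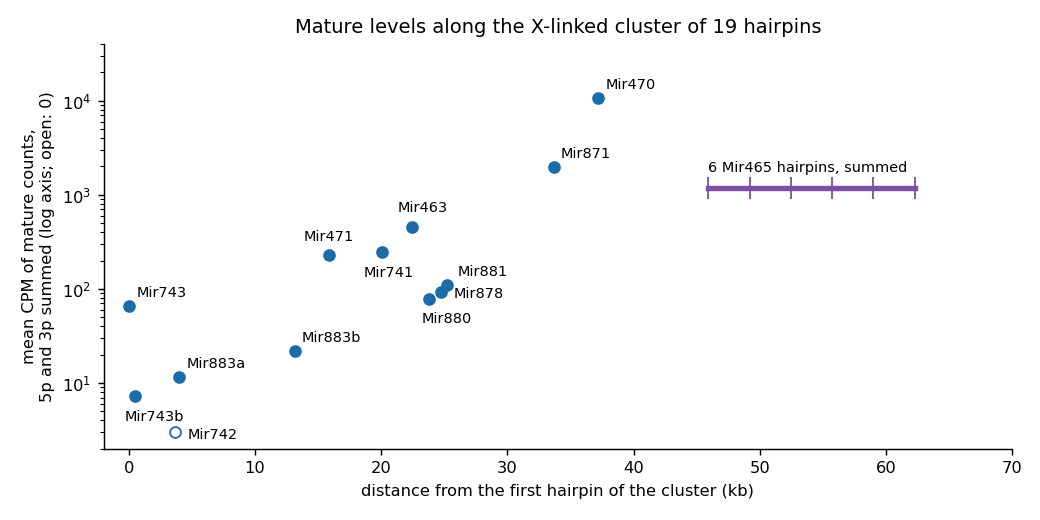
Points give the mean CPM of mature counts of 3 libraries, both arms summed, for each hairpin of the larger cluster against its distance in kb from the first hairpin, on a log axis. Mir470 and Mir871 stand highest, the 6 Mir465 hairpins are drawn as 1 line at their summed level because their copies cannot be divided, and Mir742 is an open point for 0 mature counts.

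Besides mature entries, the catalogues list hairpin entries under the same names, and what separates the types is not given in the sources used here. The family held 3984, 4457 and 5258 hairpin counts, or 0.808%, 0.728% and 0.910% of all hairpin counts (0.815% ± 0.0914). The ratio of mature to hairpin counts was 2.93, 3.50 and 3.19 in the family and 1.76, 1.63 and 1.66 in all other miRNAs, a difference of 0.74, 1.10 and 0.94 on the log2 scale (0.93 ± 0.18, higher in 3 of 3 libraries, exact permutation p = 0.25, the smallest possible). This difference depended on which abundant members were counted. Without miR-470-5p in the family, in a setting added after seeing the data, the family ratio was 1.23, 1.52 and 1.45. It lay below that of all other miRNAs, which kept their abundant members, in 3 of 3 libraries. The log2 difference was -0.52, -0.10 and -0.19 (mean -0.27 ± 0.22, exact permutation p = 0.25). With the 10 most abundant left out of the other miRNAs only, the mean difference was 1.71. Leaving out both was not tested.

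All 25 members with mature counts were also listed as hairpin, and 18 of the 31 hairpin entries had at least 10 hairpin counts in every library. miR-871-5p had 618, 806 and 655 hairpin counts, and miR-465c-5p had 360, 342 and 396. miR-878-5p and miR-471-5p, whose mature counts fell to 0 and 9 in a library, had 103, 96 and 62 and 71, 79 and 129 hairpin counts. miR-883b-5p was counted as hairpin at 17, 16 and 58, although replicate 2 had no mature count of it. The other members of the 18 whose hairpin values are not given here by library lay between 12 and 173 counts in every library.

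The ratio of mature to hairpin counts was not alike among members. Of 23 family names with at least 10 counts in every library, both types summed, 10 had more mature than hairpin counts in every library, against 35.4% of 395 names of all miRNAs. Hairpin counts were higher in every library for 4, against 36.7%, and 9 were mixed. The 4 were miR-465a-3p and miR-465b-3p, whose naming moved between libraries, miR-547-3p and miR-883a-3p. miR-547-3p had 364, 369 and 106 hairpin counts against 172, 91 and 9 mature counts. miR-883a-3p was listed only as hairpin, with 28, 58 and 37 counts. On the mature side, miR-470-5p had 973, 1306 and 1628 hairpin counts, and mature counts made up 89.1%, 89.2% and 87.6% of its total. miR-463-5p reached 86.3%, 87.1% and 98.8%. The median mature percentage over both types was 56.5% for the family names and 47.3% for all names. Of the 6 names listed only as hairpin, miR-883a-3p was the only one counted in every library, and miR-509-5p, miR-465a-5p, miR-741-5p, miR-742-5p and miR-883b-3p had at most 45 counts in any library.

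The family was set beside 3 other miRNA groups within each library. The miR-34 and miR-449 family, known from meiotic germ cells and multiciliated cells and here mostly the more widely expressed miR-34a-5p at 16300, 9278 and 13072 CPM, held 1.69%, 1.05% and 1.37% of the mature counts (1.37% ± 0.318). The miR-506 family was lower in replicate 1 and higher in replicates 2 and 3, by -0.33, 0.56 and 0.34 on the log2 scale (0.19 ± 0.46, exact permutation p = 0.5, adjusted 0.5), a difference within the spread of the libraries. With the leading members miR-470-5p and miR-34a-5p left out of both, a setting chosen after seeing the data, the mean difference was 2.58. With miR-470-5p alone left out, the family was lower in every library, by -1.996, -1.14 and -1.34.

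The X-linked cluster of miR-322, miR-503, miR-351, miR-542 and miR-450, known for its role in cell cycle exit and muscle differentiation, held 0.795%, 0.881% and 0.738% (0.805% ± 0.0720). The miR-506 family was higher in 3 of 3 libraries, by 0.75, 0.81 and 1.23 on the log2 scale (0.93 ± 0.26, exact permutation p = 0.25, adjusted 0.375 over the 3 comparisons). With mature and hairpin entries summed the difference was 0.13, 0.12 and 0.53 (mean 0.26), and in the hairpin entries of the names with mature counts the family held a mean of 0.800% against 1.49% for the cluster. Without miR-470-5p, a setting added after seeing the data, the family lay below the cluster in 3 of 3 libraries. The difference was -0.91, -0.89 and -0.44 (mean -0.74 ± 0.27), with all members of the cluster kept. The miR-290 and miR-302 clusters, miRNAs of pluripotent and early germ cells, held 0.0308%, 0.0323% and 0.0312% (0.0314% ± 0.00079). The family stood above them by 5.45, 5.58 and 5.80 (5.61 ± 0.18, exact permutation p = 0.25, adjusted 0.375), and by 3.78, 3.88 and 4.12 without miR-470-5p.

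**Figure D5:**
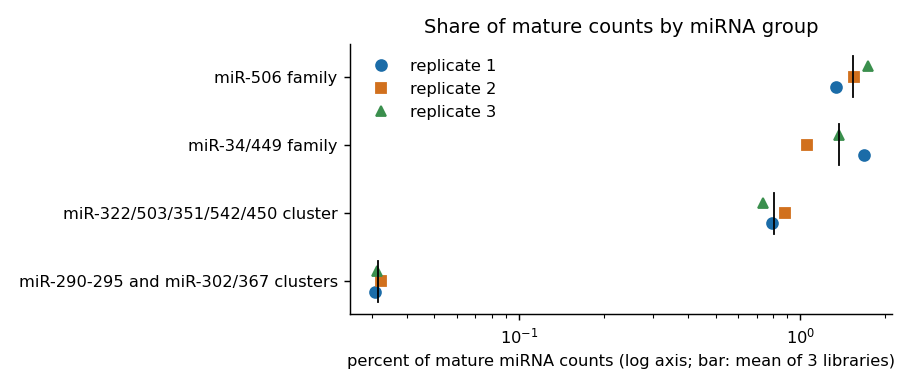
Symbols give the percent of mature miRNA counts held by each group in each library on a log axis, and a vertical bar marks the mean of 3 libraries. The miR-506 family at 1.34% to 1.74% overlaps the miR-34 and miR-449 family at 1.05% to 1.69% and lies above the other 2 groups in every library.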

How the data were processed

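Small RNA of EVs from PND7 mouse testis was sequenced in 3 libraries of 1 condition. The authors removed low-quality reads, used Bowtie2 and cmsearch to map the rest to a genome (mm10 per the submitters' processing notes) and to small RNA databases, and gave each read to 1 class; tool versions and mismatches are not given in the sources used here. They deposited whole-number counts per small RNA, not normalized, and the percent of clean reads per class. Another column, named for molecular identifiers, equals counts scaled to clean reads and was left aside. Class percents were read but not used for the family. The 5 rows that name no small RNA held 64.5% of clean reads on average and stayed out.

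Counts were scaled to CPM of the mature, or hairpin, counts of each library, with missing entries as 0. Of the 604 mature entries that form the total, 524 carry mouse names. Within-library differences were tested by an exact permutation test over libraries, two-sided and by sign flips, on log2 values with 0.5 added for arms, and adjusted by Benjamini-Hochberg. The log2 means of arms with 0 counts depend on this pseudocount, and fold bounds use a floor of 3 counts per library. Intervals (Clopper-Pearson, 95%) cover counting error only, since PCR copies were not told apart, and sequence preferences of ligation were not corrected. The 13 members with at least 10 mature counts in every library, and those with at least 10 hairpin counts (21 by either type), were to be given by library. Pairs were to be named where the arms summed to 10 in every library, and miR-547, below this in replicate 3, was named as well. The comparison groups were listed by name. Members, lists and groups were chosen with earlier results of these data known. The libraries are separate EV preparations. Alternatives changed the denominator, entry type, count minimum, scaling, pseudocount and pooling, and left out each replicate. Arm ratios and the chi-square between libraries were checked on simulated counts. These counts held counting noise only, less than the libraries showed. Group shares and mature to hairpin ratios were not simulated. Sequences and positions came from RefSeq (GRCm38.p6), neighboring genes from GENCODE vM21. The software was edgeR 4.0.16 (TMM factors only), SciPy 1.17.1, pandas 2.3.3 and matplotlib 3.10.9, run under Python 3.11.15.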

Additional observations from a re-analysis of the deposited data

Results flagged for a closer look

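Outside the mature and hairpin entries, the catalogues also list precursor families of Rfam, which no comparison above uses. The family mir-471 had 3, 82 and 0 counts in replicates 1, 2 and 3, so that its 82 counts in replicate 2 lay above the 3 counts that a count of 0 allows. For mir-463 the counts were 41, 16 and 0, with 41 in replicate 1. The family mir-506 had 11, 0 and 0 counts, 11 of them in replicate 1. Each was listed at 0 in at least 1 library, no control library exists, and the differences between libraries were not tested.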

How the results depend on the processing

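Of 53 alternative values of the main results, 47 were labeled unchanged, 4 moved and 2 reversed. Log2 differences were judged by direction only, and shares and counts by limits set for a change. From the miR-34 and miR-449 family, the change from 0.19 to 2.58 without miR-470-5p and miR-34a-5p thus counted as unchanged. The same difference without miR-470-5p alone, at -1.996, -1.14 and -1.34, was not among the 53. Without miR-470-5p, a setting added after seeing the data, the log2 difference turned to -0.74 from the miR-322 cluster and to -0.27 for mature over hairpin counts. This setting leaves out most mature counts of the family, while the other side kept its leading members. It therefore lowers the family side by construction. With both types summed the difference from the miR-322 cluster was 0.26, and against other miRNAs without the 10 most abundant the mature over hairpin difference was 1.71. The share of the family was 1.27% with mature and hairpin entries summed, 3.44% of mature counts without let-7 and miR-127, and 0.156% of all counts that name a small RNA, and miR-470-5p held 59.1% of the family with both types summed; these settings change what is counted. Leaving out each replicate in turn gave a share of 1.44 to 1.64%, 29 names identified in place of 31, 6 pairs with the 5p arm higher and 5 to 6 with the 3p arm higher, and a leading share of 68.5 to 68.9%. Without each replicate the log2 differences were 0.0020 to 0.45 from the miR-34 and miR-449 family, 0.78 to 1.02 from the miR-322 cluster, 5.51 to 5.69 from the miR-290 and miR-302 clusters, and 0.84 to 1.02 for mature over hairpin counts.

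Among 112 alternative values of single members and pairs, 4 reversed. Without each replicate in turn, the log2 5p to 3p ratio ran from -0.97 to 2.28 for miR-465c, from -3.47 to 0.62 for miR-743a and from -2.87 to 0.96 for miR-878, and it was 0.76 for miR-878 with both types summed, where miR-465b stood at 1.64, miR-471 at -0.30 and miR-743a at -0.39; the cause was not tested. Since 3 libraries cannot give p under 0.05, no call could be gained or lost. Labels give 1 group only. Samples could not be paired across groups because there is no other group, and the tests paired quantities within each library. Low counts limit members under about 10 counts, where a value rests on a single library.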
